A study of Mus musculus with 6 samples.

Results

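The cytosolic ribosomal protein genes were followed in RNA-seq libraries of mouse melanoma tumours. The members were the protein-coding genes whose GENCODE symbol is that of a protein of the large subunit (Rpl, with Rplp0, Rplp1 and Rplp2 of the stalk) or of the small subunit (Rps, with Rpsa), and pseudogenes were left out. This gave 80 of the 53801 gene identifiers in the count tables, 49 of the large and 31 of the small subunit, on 19 chromosomes, with 14 of them on chromosome 7 (GRCm38). The rule used symbols only and no measured value.

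The cytosolic ribosome is built from ribosomal RNA and 1 copy of nearly every one of these proteins, so cells make the proteins in matched amounts and their mRNAs are usually among the most abundant in a growing cell. Many of these mRNAs begin with a 5′ terminal oligopyrimidine tract (TOP), a C followed by a run of C and T, through which mTOR signalling and the RNA-binding protein Larp1 control their translation. Myc drives their transcription together with that of the factors that assemble the ribosome, and unassembled Rpl5 and Rpl11 bind Mdm2, the ligase that keeps p53 low. In melanoma, as in other tumours, ribosome production is tied to growth.

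Tumours were raised from B16-F10, a melanoma line of C57BL/6 mice, injected under the skin of wild type male C57BL/6J mice aged 10 to 12 weeks. For the SEVO group (n = 3 tumours), the cultured cells were exposed to 2% sevoflurane, a volatile anaesthetic, during a flush of 30 min and a further 2 h in the closed chamber, and for the CTRL group (n = 3 tumours) they were not. The mice of the priming experiment were not anaesthetised when the cells were injected, and tumours were taken after at most 4 weeks, so the RNA comes from melanoma cells together with the cells of the host. The comparison asks whether a tumour grown from primed cells differs in the expression of these genes.

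The counted depth ran from 723431 to 1348676 reads, 2.06% to 4.61% of the uniquely aligned reads. The predicted genes Gm10800 and Gm10801 together held 49.0%, 1.31% and 35.5% of them in CTRL 1, 2 and 3 and 7.97%, 8.71% and 18.7% in SEVO 1, 2 and 3. The labels name the tissue as melanoma but the cell type as monocytes. All 7 melanocyte markers were counted in every tumour (lowest 4 reads, for Mlana), while of the 9 macrophage markers Csf1r had 88 to 257 reads, Cd68 had 7 to 17, Mrc1 had 0 to 23, Adgre1 had 0 to 9, and C1qa, C1qb, C1qc, Itgam and Lyz2 had at most 4. The samples were read as whole tumour tissue because the labels give tumour as the source and the methods describe RNA from tumours.

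For the start of the mRNA, RefSeq promoter windows (GRCm38.p6) were matched to 60 of the 80 genes, with 72 annotated starts. A C followed by at least 5 pyrimidines (C or T) stood exactly at the annotated start in 11 of these 72 starts (15.3%), against 1.70% of all 32851 starts in the same table. The letters TTCCGG, searched on both strands from 250 bases before to 50 bases after the start, were present in 34 of the 72 windows (47.2%), against 14.9% of all windows. These matches describe the letters only. The starts of 4 genes are shown because their reads are described in the next paragraphs. They were taken from the 11 starts with the tract, so that they share it by choice, and their genes had 3 to 68 reads. Each window holds 12 bases before the start and 18 from it, 5′ to 3′ on the strand of the gene, and the capitals mark the pyrimidine tract that begins at the annotated start.
Rps15a, chr7:118116130-118116159, minus strand: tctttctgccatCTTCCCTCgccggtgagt
Rpl15, chr14:18270969-18270998, minus strand: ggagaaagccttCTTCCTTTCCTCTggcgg
Rps27, chr3:90213631-90213660, minus strand: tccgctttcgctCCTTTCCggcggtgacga
Rps6, chr4:86857350-86857379, minus strand: cggaagtcgggcCTCTTTTTCgtgacgcct

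The 80 genes together held few reads. Their sum was 875, 803 and 836 reads in CTRL 1, 2 and 3 and 464, 613 and 1172 reads in SEVO 1, 2 and 3, or 4763 reads in the 6 tumours. As a share of the reads counted on genes this was 0.0649%, 0.111% and 0.0801% for CTRL and 0.0537%, 0.0685% and 0.132% in SEVO, with 95% Wilson intervals from 0.0490% to 0.0588% for the lowest tumour, SEVO 1, and from 0.125% to 0.140% for the highest, SEVO 3. These intervals cover counting error only. The CTRL mean was 0.0853% ± 0.0235 (SD, n = 3), and the SEVO mean 0.0847% ± 0.0416 (SD, n = 3). These 2 means were close, a difference of -0.687% of the CTRL mean, but this rested on the denominator. Without Gm10800 and Gm10801 the CTRL mean was 0.121% ± 0.00778 (SD, n = 3), the SEVO mean was 0.0986% ± 0.0559 (SD, n = 3) and the difference -18.7%, and as a share of uniquely aligned reads it was -24.0%. Both differences were larger than the SD of the CTRL tumours but smaller than the SD of the SEVO tumours. The lowest and the highest tumour by share of counted reads both belonged to SEVO.

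Single genes were counted at correspondingly low numbers. The total over the 6 tumours ran from 3 reads (Rpl10l, Rpl19 and Rps6) to 416 reads (Rpl4), with a median of 36. The median gene had 8, 4.5 and 5 reads in CTRL 1, 2 and 3 and 3, 4 and 8 reads in SEVO 1, 2 and 3. In total 16 genes had no more than 10 reads in all tumours together, 31 had 0 reads in at least 1 tumour, and 10 had at least 10 reads in every tumour. The number of genes at 0 reads was 1, 15 and 5 in CTRL and 21, 12 and 7 in SEVO, and a count of 0 still allows up to 3 reads. The 8 genes with the most reads held 41.9% of the sum.

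**Figure D1:**
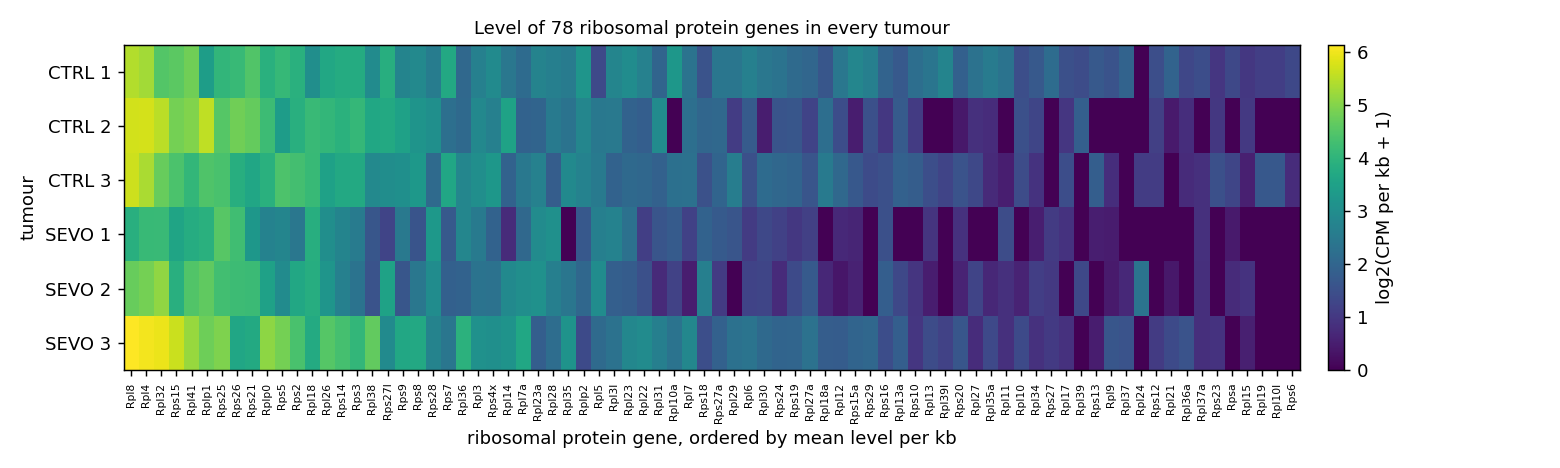
Level of 78 of the 80 ribosomal protein genes (columns, ordered by mean level) in each of the 6 tumours (rows), as log2(CPM per kb of exon + 1), where CPM is the read count scaled to a common library size with TMM factors. Rpl8 and Rpl4 lead in most tumours, SEVO 3 is brightest and SEVO 1 dark among the leading genes, and the right side holds the genes with counts of 0.

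Per kb of exon, the density of counted reads, here called level, ranged widely between genes whose proteins stand in the ribosome in nearly equal numbers. It is not a measured amount of mRNA. Reads of near-identical copies, and of genes on the opposite strand as at Rpl32, could not be told apart. Rpl8, a large subunit protein near the catalytic centre (chr15:76904078-76906314), led with a mean of 41.9 CPM per kb, followed by Rpl4, which lines the exit tunnel (chr9:64173375-64178666), with 39.9, and Rpl32 with 33.7. Rps15 had 24.0, Rpl41, the smallest ribosomal protein, 23.7 and Rplp1 23.2 CPM per kb. At the other end stood Rps6, the substrate of S6 kinase and the protein most often used to read that pathway (chr4:86854660-86857412), with 0.376 CPM per kb. It had 2, 0 and 1 reads in CTRL 1, 2 and 3 and 0 in every SEVO tumour. With so few reads, neighbours at the low end do not differ beyond the spread of their counts.

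Against other genes of the same tumours, the 80 genes had 5.24, 4.81 and 5.00 reads per kb of exon in CTRL 1, 2 and 3 and 2.78, 3.67 and 7.01 in SEVO 1, 2 and 3. The 7 melanocyte markers had 34.9, 35.9 and 37.1 reads per kb in CTRL and 18.1, 22.7 and 53.0 in SEVO, and the 78 mitochondrial ribosomal protein genes, which serve a separate ribosome, had 8.12, 11.3 and 8.72 in CTRL and 11.8, 12.5 and 10.1 in SEVO. Thus the cytosolic set was less densely covered than the mitochondrial set in every tumour. As a measure of reads on genes that a melanoma has no known use for, 1460 olfactory and vomeronasal receptor genes had 1.30, 0.0755 and 0.588 reads per kb in CTRL and 0.184, 0.210 and 0.396 in SEVO. On the exon length of the 80 genes, that density would amount to 24.7% of their reads in CTRL 1, 11.8% in CTRL 3 and 1.57% to 6.63% in the other 4 tumours.

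Large and small subunit genes moved alike between tumours. The 49 large subunit genes summed to 474, 467 and 454 reads in CTRL 1, 2 and 3 and 255, 371 and 691 in SEVO 1, 2 and 3. The 31 small subunit genes summed to 401, 336 and 382 reads in CTRL and 209, 242 and 481 in SEVO. In both subunits SEVO 1 had the fewest and SEVO 3 the most reads, and by reads the 3 CTRL tumours lay between SEVO 2 and SEVO 3. As a share of counted reads, however, the large subunit stood at 0.0351% in CTRL 1, below the 0.0415% of SEVO 2.

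The reads on the 80 genes also moved with those on the melanocyte markers. These markers summed to 993, 1020 and 1056 reads in CTRL 1, 2 and 3 and to 515, 646 and 1506 in SEVO 1, 2 and 3. Per melanocyte marker read, the ribosomal protein genes had 0.881, 0.787 and 0.792 reads in CTRL and 0.901, 0.949 and 0.778 in SEVO. The highest of these ratios was 1.22 times the lowest, while the share of counted reads differed 2.46-fold between the highest and the lowest tumour. The CTRL tumours averaged 0.820 ± 0.0530 (SD, n = 3), the SEVO tumours averaged 0.876 ± 0.0880 (SD, n = 3), and the groups overlapped. Over the 62 genes with no exon opposite another gene, the order of the means was the other way, with 0.598 ± 0.0685 (SD, n = 3) for CTRL and 0.556 ± 0.0363 (SD, n = 3) for SEVO. Per read on Actb, the beta-actin gene, the 80 genes had 4.23, 4.61 and 4.18 reads in CTRL and 8.14, 5.89 and 5.14 in SEVO, so that every SEVO tumour lay above every CTRL tumour. Actb itself had 207, 174 and 200 reads in CTRL and 57, 104 and 228 in SEVO, and the direction of such a ratio thus depended on the genes it was set against. In tissue, fewer melanoma cells and less RNA per melanoma cell cannot be told apart, and the part of the melanocyte share in the counts was not tested.

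**Figure D2:**
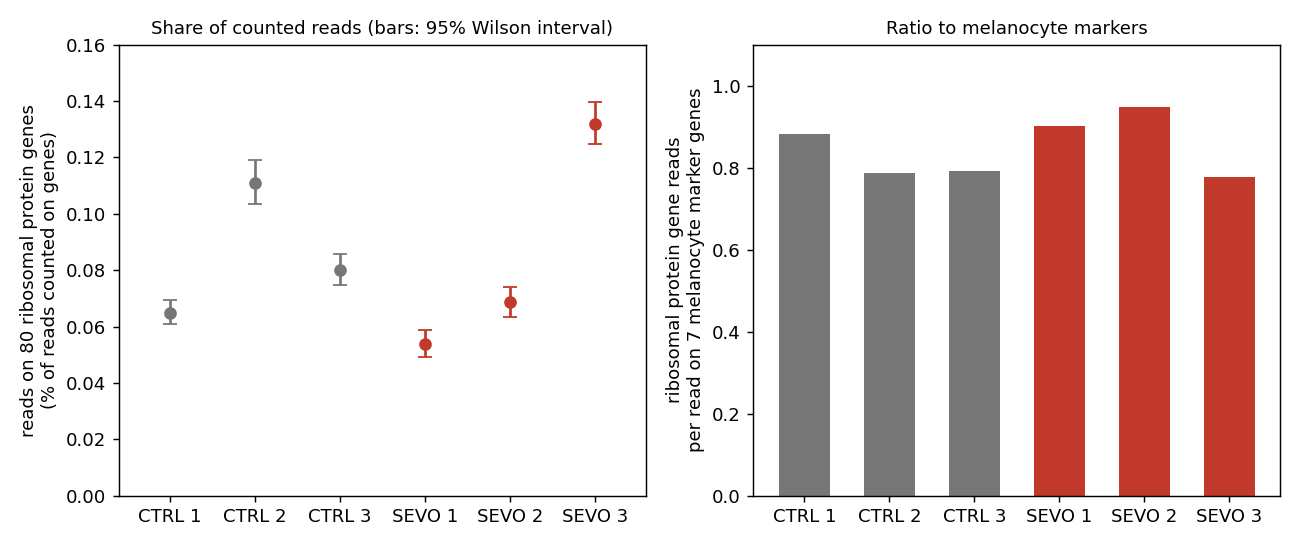
Left, reads on the 80 ribosomal protein genes as a percentage of the reads counted on genes in each tumour (points, with 95% Wilson intervals). Right, the same reads per read on 7 melanocyte marker genes (bars from 0), CTRL in grey and SEVO in red. The share runs from 0.0537% in SEVO 1 to 0.132% in SEVO 3, while the ratio stays between 0.778 and 0.949.

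Markers of other cell types moved with the ribosomal protein genes in part. The 9 macrophage markers summed to 144, 222 and 192 reads in CTRL 1, 2 and 3 and to 277, 256 and 203 in SEVO 1, 2 and 3, of which Csf1r made up 88, 209, 165, 257, 242 and 176. Csf1r has 873 exon bases opposite another gene, and C1qb was at 0 in 4 of the 6 tumours. The 6 T and NK cell markers summed to 7 to 61 reads, the 3 fibroblast collagens to 11 to 89, the 4 erythroid globins to 18 to 102 and the 4 skeletal muscle genes to 1 to 30. The 3 endothelial markers summed to 7 to 67 reads. Within SEVO, the T and NK cell, fibroblast, erythroid, muscle and endothelial markers were highest in SEVO 3, as the ribosomal protein genes were. For T and NK cells this rested on 21, 23 and 27 reads in SEVO 1, 2 and 3. The macrophage markers and the 2 keratinocyte markers (3, 6 and 2 reads) were lowest in SEVO 3. Over all 6 tumours, the T and NK cell, fibroblast, muscle, endothelial and keratinocyte markers were highest in CTRL 1. Their part in the ribosomal counts was not tested.

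For the comparison of SEVO with CTRL, 21 of the 80 genes had enough reads to be tested, 10 of the large and 11 of the small subunit, and 59 had not. By the quasi-likelihood test of edgeR, 0 of the 21 reached an unadjusted p under 0.05, against 4.36% of the 7561 genes tested (3.84% lower and 0.529% higher in SEVO). A share of 4.36% of 21 genes is less than 1 gene, so this count is near that of all genes. After Benjamini-Hochberg adjustment over all genes tested in edgeR, 0 of the 21 and 0% of all genes passed 0.05, and the adjusted p of the 21 genes ran from 0.741 to 0.993. DESeq2 gave 0 of the 80 genes with an unadjusted p under 0.05, against 0.625% of all genes in that fit.

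The estimated differences were small against their errors. The log2 fold change was below 0 (lower in SEVO) for 16 genes and above 0 for 5, with a median of -0.24 against -0.018 over all genes tested, and the standard errors ran from 0.33 to 0.89. The median was -0.062 for the 10 large subunit genes, 7 of them below 0, and -0.35 for the 11 small subunit genes, 9 of them below 0. In none of the 21 genes did the CPM of all SEVO tumours lie on one side of all CTRL tumours, whereas this held for 8.56% of all genes tested (4.17% with SEVO above and 4.39% with SEVO below). Over all 80 genes, tested or not, SEVO lay below CTRL in CPM in 7 (Rpl10, Rpl17, Rplp2, Rps10, Rps12, Rps23 and Rps27a) and above it in 0, against 4.54% below and 1.05% above among all 42423 genes with a read. Of these 7, which had 5 to 47 reads in total, none passed the filter on low counts. In unscaled reads only Rplp2 was separated. In the others the lowest CTRL count equalled the highest SEVO count, so their order rested on the scaling factors.

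**Figure D3:**
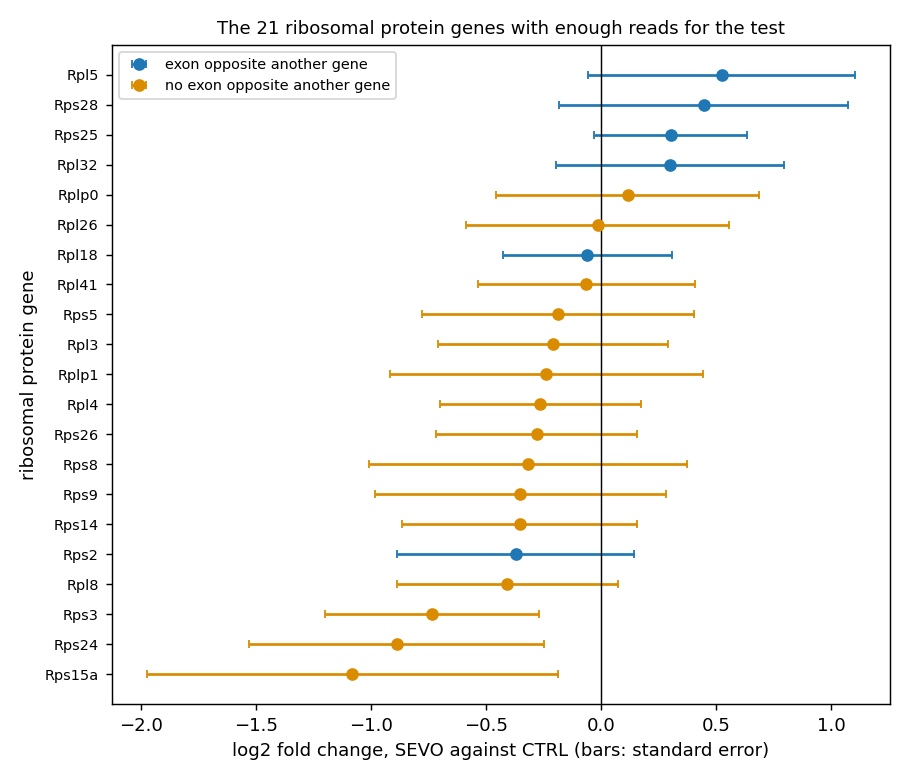
The log2 fold change of SEVO against CTRL (x axis, points) with its standard error (bars) from edgeR for the 21 ribosomal protein genes tested, in blue where an exon lies opposite another gene and in orange where none does. The values run from -1.08 (Rps15a) to 0.52 (Rpl5), and 16 of the 21 points lie below 0.

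SEVO 3 set the upper end of most genes. It had the highest CPM of the 6 tumours in 13 of the 21 genes (61.9%), while it was highest in 8.28% of all genes tested. SEVO 1 had the lowest CPM in 9 of the 21 genes (42.9%), against 20.3% of all genes tested. SEVO 2 was lowest in 5 (23.8%, against 13.5%) and CTRL 1 in 4 (19.0%, against 30.9%). CTRL 2, CTRL 3 and SEVO 3 were lowest in 1 gene each. Without SEVO 3, 25 of the 80 genes could be tested and 6 of them (Rpl8, Rps15a, Rps14, Rps3, Rpl4 and Rps7) had an unadjusted p under 0.05 in edgeR, all lower in SEVO, where 13.3% of all genes had such a p and 12.1% were lower. The adjusted p of these 6 ran from 0.329 to 0.374 by edgeR with Benjamini-Hochberg adjustment. Without CTRL 2, 2 of 27 genes (Rps15a and Rps7) had an unadjusted p under 0.05, both lower, against 28.5% of all genes (18% lower), which is above the share of the ribosomal protein genes.

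Rps3, a small subunit protein at the entry of the mRNA that also takes part in DNA repair (chr7:99477896-99483738), had the lowest p of the 21 genes. It was counted with 47, 57 and 48 reads in CTRL 1, 2 and 3 and with 19, 17 and 64 reads in SEVO 1, 2 and 3. In CPM, CTRL stood at 61.2 ± 8.96 (SD, n = 3), compared with 36.6 ± 28.8 (SD, n = 3) for SEVO. On this scale SEVO 1 and SEVO 2 lay below every CTRL tumour and SEVO 3 within their range. The log2 fold change was -0.74 ± 0.47 (SE), with an edgeR p of 0.138 and a Benjamini-Hochberg adjusted p of 0.741.

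Rpl8 and Rpl4, the leading genes of the large subunit, shared an order of the SEVO tumours around CTRL. Rpl8 had 47, 56 and 59 reads in CTRL and 16, 32 and 86 in SEVO, a log2 fold change of -0.41 ± 0.48 (SE). Rpl4 had 63, 84 and 70 reads in CTRL and 29, 52 and 118 in SEVO, a log2 fold change of -0.26 ± 0.44 (SE). In both genes SEVO 1 and SEVO 2 were below and SEVO 3 was above all 3 CTRL tumours, so that the groups overlapped through 1 tumour. Rps15, a protein of the small subunit head, had 12, 14 and 11 reads in CTRL and 6, 8 and 28 in SEVO, the same order, and was not tested.

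Rps15a (chr7:118104372-118116188), the gene with the pyrimidine start shown first, had the lowest fold change. Its reads were 31, 2 and 12 in CTRL and 3, 3 and 17 in SEVO, and the log2 fold change was -1.08 ± 0.89 (SE). CTRL 1 was the highest and CTRL 2 the lowest tumour, so the whole range lay within CTRL, and without CTRL 1 the log2 fold change was 0.036. Rps24, which is among the genes mutated in Diamond-Blackfan anaemia, had 21, 10 and 17 reads in CTRL and 7, 4 and 17 in SEVO, with a log2 fold change of -0.89 ± 0.64 (SE). The exons of these genes are long (6270 and 6256 bases with all annotated isoforms), and in CTRL 1 the density on the olfactory and vomeronasal receptor genes would put 8.12 and 8.10 reads on them.

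The stalk of the large subunit, which recruits the elongation factors, is formed by Rplp0, Rplp1 and Rplp2. Rplp0 had 19, 23 and 20 reads in CTRL 1, 2 and 3 and 8, 16 and 50 in SEVO 1, 2 and 3, with a log2 fold change of 0.11 ± 0.57 (SE). Rplp1 had 4, 18 and 9 reads in CTRL and 6, 11 and 12 in SEVO, with a log2 fold change of -0.24 ± 0.68 (SE). Rplp2 had 14, 10 and 10 reads in CTRL and 4, 6 and 3 in SEVO, so each SEVO tumour lay below each CTRL tumour, but it did not pass the filter on low counts and was not tested. The members of the stalk thus did not share an order of tumours. Rpsa, a small subunit protein also known as the laminin receptor, had 4, 0 and 4 reads in CTRL and 1, 2 and 0 in SEVO.

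Pairs of paralogs were present at low counts on both sides. Rpl3 had 14, 16 and 20 reads in CTRL and 13, 12 and 22 in SEVO, with a log2 fold change of -0.21 ± 0.50 (SE), and its skeletal muscle paralog Rpl3l had 8, 6 and 4 in CTRL and 8, 4 and 6 in SEVO. Rpl10 had 3 reads in each CTRL tumour and 0, 1 and 3 in SEVO, and its testis paralog Rpl10l had 1, 0 and 2 in CTRL and 0 in SEVO. Rpl39 had 2, 3 and 0 reads in CTRL and 0, 2 and 0 in SEVO, and Rpl39l 4, 0 and 1 in CTRL and 0, 0 and 1 in SEVO. Per kb of exon, Rpl3l reached 4.25 CPM against 5.87 for Rpl3, Rpl10l 0.572 against 1.23 for Rpl10, and Rpl39l 1.42 against 0.969 for Rpl39. With 3 reads on Rpl10l and 6 on Rpl39l in all, where the receptor gene density would put 1.32 and 1.08 reads on them in CTRL 1 alone, no order can be read from these levels. Rps27l, an inducible target of p53, had 9, 8 and 5 reads in CTRL and 1, 8 and 5 in SEVO, more than Rps27 with 3, 0 and 0 in CTRL and 1 in each SEVO tumour. Reads shared between near-identical copies cannot be placed by unique alignment, so these counts are uncertain.

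Among the genes of the Mdm2 checkpoint, Rpl5 (chr5:107900502-107909005) had the highest fold change of the 21 genes. It had 5, 14 and 16 reads in CTRL and 18, 25 and 12 in SEVO, with a log2 fold change of 0.52 ± 0.58 (SE). The groups overlapped, with CTRL 1 as the lowest tumour and SEVO 3 the lowest of SEVO. Its partner Rpl11 had 9, 0 and 1 reads in CTRL and 4, 2 and 2 in SEVO. Rps19, the gene most often mutated in Diamond-Blackfan anaemia, had 13, 8 and 12 reads in CTRL and 4, 7 and 13 in SEVO, and neither Rpl11 nor Rps19 was tested.

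Rpl5 is also one of the genes that lie opposite another gene. In the annotation, 18 of the 80 genes have exon bases opposite an exon of a gene on the other strand, and 62 have none. The strand setting of the counting is not given in the sources used here, and without it reads of the 2 genes of such a pair cannot be told apart where they overlap. Of the 21 genes tested, 6 had an opposite exon, of which 4 had a log2 fold change above 0 (Rpl5, Rps28, Rps25 and Rpl32), with a median of 0.30. Of the 15 without one, 14 had a log2 fold change below 0 and 1 above (Rplp0), with a median of -0.28. These groups of genes were formed after their values were seen, and their difference was not tested.

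The sums of the groups include the reads of the genes tested, so they are no separate support for this split. The 62 genes without an opposite exon summed to 672, 574 and 585 reads in CTRL 1, 2 and 3 and to 265, 375 and 864 in SEVO 1, 2 and 3. The 18 genes with one summed to 203, 229 and 251 reads in CTRL and to 199, 238 and 308 in SEVO. In the former SEVO 1 and SEVO 2 lay well below CTRL, and in the latter they lay within or next to its range.

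Of these 18 genes, 17 could be paired with 19 counted genes on the other strand. In 13 of the 19 pairs the opposite gene had more reads than the ribosomal protein gene in every tumour, and in 2 pairs it had fewer in every tumour (Trappc4 opposite Rps25, and Snhg9 opposite Rps2). Rpl32, the third gene by level, had 17, 34 and 21 reads in CTRL and 14, 30 and 54 in SEVO. Its neighbour Cand2, a regulator of ubiquitin ligases known from muscle, had 1074, 3698 and 1555 reads in CTRL and 3945, 4119 and 2663 in SEVO, with 53 bases of exon overlap. Rpl5 shares 953 exon bases with Fam69a, which had 123, 484 and 270 reads in CTRL and 397, 513 and 228 in SEVO. In both Rpl5 and Fam69a, CTRL 1 was the tumour with the fewest reads. This was not particular to the pair, since CTRL 1 was also the lowest for Cand2, while Rpl32 was lowest in SEVO 1. Rpl15, with 2, 2 and 1 reads in CTRL and 0, 2 and 1 in SEVO, lies opposite Nkiras1, an inhibitor of NF-kappa-B signalling, with 137, 380 and 254 reads in CTRL and 397, 435 and 264 in SEVO.

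**Figure D4:**
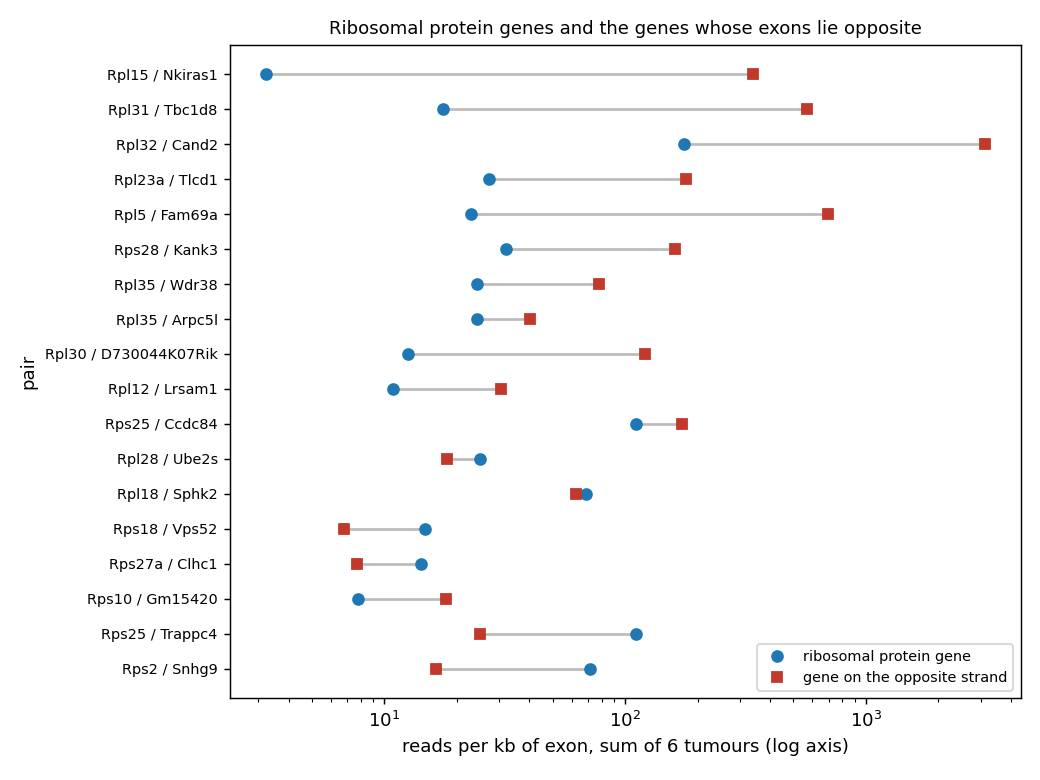
Reads per kb of exon, summed over the 6 tumours (log axis), of the ribosomal protein genes (circles) and of the genes whose exons lie on the opposite strand (squares) for 18 of the 19 pairs, ordered by the ratio of total reads. Cand2 opposite Rpl32 reaches 3115 reads per kb against 177 for Rpl32, while Rps2 and Rps25 have more reads than Snhg9 and Trappc4.

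Not every such pair was as unequal as Rpl32 and Cand2. Rpl18 had 24, 54 and 58 reads in CTRL and 47, 49 and 46 in SEVO, and Sphk2, the sphingosine kinase opposite it, had 35, 41 and 58 in CTRL and 40, 49 and 36 in SEVO. Rps25 (chr9:44407139-44410427), which is needed for translation from several internal entry sites, had 34, 47 and 46 reads in CTRL and 52, 46 and 73 in SEVO, with a log2 fold change of 0.30 ± 0.33 (SE). It lies opposite Ccdc84, with 62, 115 and 96 reads in CTRL and 135, 180 and 126 in SEVO. Ccdc84 had more reads than Rps25 in every tumour. A further 27 of the 80 genes share exon bases with a gene on the same strand, mostly a small nucleolar RNA within the gene, where reads cannot be assigned to 1 gene.

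Genes that work with the ribosome were also mostly estimated lower in SEVO, without passing the test. Of the 17 genes of translation elongation and other TOP mRNAs, 12 were tested, all 12 had a log2 fold change below 0, with a median of -0.48, and 0 had an unadjusted p under 0.05 in edgeR. The 7 melanocyte markers were likewise all below 0, with a median of -0.38, and Actb was at -0.71. Eef1a1, which brings aminoacyl-tRNA to the ribosome, had 99, 123 and 125 reads in CTRL and 41, 55 and 175 in SEVO, and Eef2, which moves the ribosome along, had 99, 105 and 108 in CTRL and 33, 78 and 182 in SEVO. Both had the order of tumours seen for Rpl4 and Rpl8. The 7 genes of the ribosome that the symbols do not catch, such as Rack1 and Fau, included 2 that were tested, Rack1 at -0.32 and Rpl7l1 at -0.62, with no p under 0.05.

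Of 39 ribosome biogenesis genes, 20 were tested, 15 with a log2 fold change below 0 and 5 above, with a median of -0.66 and 0 with an unadjusted p under 0.05. All of the 5 above 0 except Polr1c have exon bases opposite another gene. Of the 15 below 0, Pes1, Wdr12, Dkc1, Gnl3 and Polr1a also have them. Nucleolin (Ncl), which acts on nascent ribosomal RNA, had 66, 50 and 102 reads in CTRL and 17, 38 and 79 in SEVO. Of 20 genes of the growth control of ribosome synthesis, 10 were tested, 8 with a log2 fold change below 0 and 2 above. Of these, 1 had an unadjusted p under 0.05, the transcription factor Sp1, with 38, 13 and 26 reads in CTRL and 6, 10 and 13 in SEVO, a log2 fold change of -1.52 ± 0.54 (SE), an edgeR p of 0.0148 and a Benjamini-Hochberg adjusted p of 0.741. Myc itself had 15, 2 and 7 reads in CTRL and 4, 3 and 7 in SEVO and was not tested. Only 1 of the 10 thus passed the unadjusted threshold and none the adjusted one. Both growth control genes above 0, Tsc2 and Gabpa, have exon bases opposite another gene, as do Rps6kb1 and Rptor below 0. The part of opposite exons in the directions of these lists was not tested.

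Sets that share the name but not the product of these genes differed in direction. Of the 78 mitochondrial ribosomal protein genes, 11 were tested, 8 with a log2 fold change above 0 and 3 below, with a median of 0.18 and 0 with an unadjusted p under 0.05. Of 297 processed pseudogenes of ribosomal proteins, 11 were tested and all 11 had a log2 fold change above 0, with a median of 0.67 and 1 with an unadjusted p under 0.05. This was Rps2-ps11, with 10, 10 and 6 reads in CTRL and 35, 27 and 33 in SEVO, so that its groups did not overlap, and a log2 fold change of 1.73 ± 0.47 (SE), an edgeR p of 0.00270 and a Benjamini-Hochberg adjusted p of 0.741. Its parent gene Rps2 had 21, 20 and 30 reads in CTRL and 7, 20 and 33 in SEVO, and a unique alignment may not separate the copies. These pseudogenes summed to 317, 228 and 236 reads in CTRL and 349, 306 and 354 in SEVO, so that here SEVO 1 was not low, unlike for the 80 genes. The difference between pseudogenes and genes was not tested.

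With no filter on low counts, all 80 genes entered the edgeR fit and 2 had an unadjusted p under 0.05, against 2.41% of all genes. 1 of them was Rpl7a, with 5, 4 and 7 reads in CTRL and 5, 12 and 19 in SEVO. With the replicate number as a block, 1 of 21 genes, Rps3, had an unadjusted p under 0.05, against 5.17% of all genes.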

How the data were processed

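RNA from 3 CTRL and 3 SEVO tumours was sequenced in 1 batch. The authors removed ribosomal RNA reads, trimmed with Trimmomatic 0.36, aligned with STAR 2.6.0c, selected unique reads and counted with HTSeq 0.9.1 (GRCm38), per the labels and the methods, and deposited raw read counts per gene without normalization. Of 53801 identifiers, 53706 matched GENCODE M21, which gave symbols, positions and exon overlaps, and M21 exon unions gave lengths. All 42423 genes with a read were available and 7561 passed filterByExpr. The test was edgeR 4.0.16 (R 4.3.3) with TMM, the quasi-likelihood fit and Benjamini-Hochberg adjustment over all genes tested, and it was checked on simulated counts. DESeq2 1.42.0, other scalings and filters, a replicate block and leaving out each tumour were alternatives. Each sample was taken as 1 tumour, and p-values measure the spread between tumours. The cells were primed in flasks before injection, and the methods describe a newly thawed frozen stock for each experimental group. The number of separate primings behind the 3 SEVO tumours is not given. If they shared 1, the p-values do not cover the spread between primings, and priming and cell stock cannot be told apart. HTSeq tallies outside genes were used only for the uniquely aligned total. The members and gene lists were chosen with earlier results of these data known. Genes named singly were the 6 with the highest level per kb, the 6 with the lowest p, the extremes of the fold change, the stalk genes, paralog pairs, and Rpl5, Rpl11, Rps19 and Rps6. Other genes named were chosen after their values were seen. The values of 2 members are not reported here, although the counts and sums include them.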

Additional observations from a re-analysis of the deposited data

How the results depend on the processing

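With an adjusted p under 0.05 as the threshold, 0 members passed under each alternative run. The number with an unadjusted p under 0.05 was 0 in edgeR as reported and stayed 0 with the other scalings, with at least 10 reads in every tumour, in DESeq2 and at the thresholds of the study, but was 2 with no filter and 1 with the replicate block, and 0 to 6 when 1 tumour was left out. The share of all genes with such a p was 0.625% in DESeq2, 2.71% to 4.63% with the other scalings, 5.25% with at least 10 reads in every tumour, 2.41% with no filter, 5.17% with the block and 1.1% (without SEVO 1) to 28.5% (without CTRL 2) when 1 tumour was left out, so the counts are not comparable between settings. The correlations of deviations between tumours of the same replicate number were -0.40, 0.32 and 0.083. With so few tumours, these values cannot show whether the replicate numbers paired the tumours. With the replicate block, Rps3 had a log2 fold change of -0.95, an edgeR p of 0.0365 and a Benjamini-Hochberg adjusted p of 0.879. The median log2 fold change of -0.24 became 0.018 with no filter (all genes -0.38), -0.034 by library size alone (all genes 0.22), -0.37 scaled to uniquely aligned reads (all genes -0.23), -0.16 in DESeq2 (all genes -0.55), -0.26 with the block, and -0.66 (without SEVO 3) to 0.075 (without SEVO 1) when 1 tumour was left out. Of the singly named genes, 22 of the values turned direction and 151 did not. By library size alone Rpl3 was at 0.038 and Rpl41 at 0.19, with no filter Rpl3 was at 0.22, Rpl4 at 0.060, Rpl41 at 0.35 and Rplp1 at 0.083, in DESeq2 Rpl3 was at 0.064 and Rpl41 at 0.19, and with the block Rplp0 was at -0.20. Leaving out 1 tumour gave -0.47 to 0.035 for Rpl3, -0.22 to 0.80 for Rpl32, -0.92 to 0.12 for Rpl4, -0.46 to 0.28 for Rpl41, -1.25 to 0.020 for Rpl8, -0.86 to 0.56 for Rplp0, -0.62 to 0.59 for Rplp1 and -2.33 to 0.036 for Rps15a. Without a change of direction it gave 0.17 to 0.84 for Rpl5, -1.55 to -0.35 for Rps3, -1.57 to -0.43 for Rps24 and 0.15 to 0.55 for Rps25. The difference in the share of counted reads, -0.687% of the CTRL mean, was -18.7% without Gm10800 and Gm10801, -24.0% of uniquely aligned reads and -28.4% (without SEVO 3) to 17.5% (without SEVO 1) when 1 tumour was left out. It was 4.59% after subtraction of the receptor gene density and 6.83% per melanocyte marker read, both of which were added after the data were seen, as was the count without opposite exons (0 of 15). The cause of these shifts was not tested. With 3 to 416 reads per gene and standard errors of 0.33 to 0.89, depth and the spread between tumours limit what could be detected.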
